A study of Arabidopsis thaliana with 12 samples.

Results

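The 60 Arabidopsis genes described here encode cytosolic proteins of the large (60S) ribosomal subunit, from RPL3 to RPL23. They were taken by their locus identifiers and family names, not by any measured value, though with earlier results of these data known. They are 60 of the 33602 genes listed in each library. They fall into 23 protein families of 2 to 4 paralogs. All 60 passed the filter on low counts.

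The series measured polyadenylated RNA from shoots of wild-type Col-0 seedlings by RNA-seq. Seedlings grew for 4 days after germination in continuous light on MS medium plates and were then moved for 8 h to plates with AZD8055 at 2 µM, KU63794 at 20 µM, TORIN1 at 10 µM or the solvent DMSO alone (mock). All groups share the Col-0 genotype, the age and the exposure time, and each has 3 libraries of about 30 mg of shoot tissue. AZD8055, KU63794 and TORIN1 are inhibitors that bind the active site of TOR, the kinase that couples nutrient supply to growth. The treatment text spells the second compound KU63749 while the sample titles spell it KU63794, and its dose was taken from that text. Nothing in the labels says that replicates were grown separately, so the p-values cover the spread among these libraries, which may be technical. In bulk tissue, fewer cells of a type and less of an RNA per cell cannot be told apart. Library totals were 7706957 to 14696645 counts, so that a gene without counts could have a level of 0.204 to 0.389 CPM (counts scaled to a common library total), depending on the library and for counting error only.

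The cytosolic ribosome is built in the nucleolus, where ribosomal proteins join the ribosomal RNA and many assembly factors before the large subunit is exported. In plants each ribosomal protein is encoded by a small family of paralogs, which can differ in level and in mutant phenotype. In mammals and yeast, TOR promotes the making of ribosomes, and promoters of plant ribosomal protein genes are known for site II elements and telo boxes.

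Those sequence elements were common near the starts of the members. In the 250 bases before each annotated gene start (RefSeq, assembly TAIR10.1), a site II element (TGGGCC or TGGGCT, on either strand) was found in 45 of 60 members (75%), against 19.2% of 27443 nuclear protein-coding genes. A telo box (AAACCCTA, on either strand) was found in 13 members (21.7%), against 4.49% of all these genes. Both were present in 11 members (18.3%), against 1.36%, and neither in 13 members (21.7%), against 77.7%. Matches can share end bases, a promoter was counted once for each motif, and a match is a description of the sequence and not of binding. The 250-base promoters of 5 members are shown in full, with capitals for site II elements and telo boxes. The first pair belongs to the RPL14 genes AT4G27090, at chr4:13595253-13595502 (reverse strand), and AT2G20450, at chr2:8813582-8813831 (forward strand). Their log2 ratio shifted by 0.71 with AZD8055, 0.70 with KU63794 and 0.09 with TORIN1. The next pair belongs to the RPL13 genes AT3G49010, at chr3:18168701-18168950 (reverse strand), and AT5G23900, at chr5:8065551-8065800 (reverse strand), the paralogs whose ratio shifted the furthest. Neither ratio passed the exact permutation test given below after adjustment (0.0982 for RPL14 and 0.101 for RPL13). The last, at chr4:6464559-6464808 (reverse strand), is that of the RPL9 gene AT4G10450, which had the largest mean change and holds neither motif in this window.
AT4G27090: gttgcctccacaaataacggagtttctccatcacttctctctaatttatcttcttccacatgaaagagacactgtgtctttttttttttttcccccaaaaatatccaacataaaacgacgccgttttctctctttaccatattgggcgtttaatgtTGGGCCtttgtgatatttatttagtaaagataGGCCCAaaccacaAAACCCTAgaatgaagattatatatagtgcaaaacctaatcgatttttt
AT2G20450: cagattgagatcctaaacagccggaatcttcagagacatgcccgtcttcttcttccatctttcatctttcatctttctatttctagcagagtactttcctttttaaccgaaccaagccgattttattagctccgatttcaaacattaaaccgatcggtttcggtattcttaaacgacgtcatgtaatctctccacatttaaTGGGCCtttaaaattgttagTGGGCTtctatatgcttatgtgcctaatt
AT3G49010: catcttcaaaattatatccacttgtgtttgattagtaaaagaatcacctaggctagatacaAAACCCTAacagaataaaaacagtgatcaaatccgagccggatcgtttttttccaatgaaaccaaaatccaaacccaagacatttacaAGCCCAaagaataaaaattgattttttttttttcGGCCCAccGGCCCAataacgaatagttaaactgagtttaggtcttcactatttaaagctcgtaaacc
AT5G23900: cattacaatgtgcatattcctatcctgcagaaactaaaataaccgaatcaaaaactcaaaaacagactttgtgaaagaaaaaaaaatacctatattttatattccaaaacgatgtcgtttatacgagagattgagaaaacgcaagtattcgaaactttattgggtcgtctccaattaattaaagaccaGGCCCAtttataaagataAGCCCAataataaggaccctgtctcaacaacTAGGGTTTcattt
AT4G10450: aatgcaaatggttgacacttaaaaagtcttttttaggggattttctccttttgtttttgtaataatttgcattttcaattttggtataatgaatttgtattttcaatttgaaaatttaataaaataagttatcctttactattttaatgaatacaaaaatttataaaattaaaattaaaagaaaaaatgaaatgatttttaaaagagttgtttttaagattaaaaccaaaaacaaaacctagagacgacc

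Changes with the inhibitors are given by motif as a description, and their medians lay close together. Members with a site II element had median log2 fold changes of -1.22 with AZD8055, -1.27 with KU63794 and -0.78 with TORIN1. For the 15 members without one the medians were -1.31, -1.28 and -0.79 in the same order. Members with a telo box had medians of -1.24, -1.14 and -0.78, and the 47 without had -1.22, -1.29 and -0.78.

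Nearly all members were lower with each inhibitor than in mock, and none was higher. In edgeR's quasi-likelihood test across 17933 genes, with Benjamini-Hochberg adjustment and a threshold of 0.05, 59 members fell with AZD8055, where 16.1% of all genes tested fell. With KU63794, 59 members fell, where 14.3% of all genes fell. With TORIN1, 56 members fell, where 10.3% of all genes fell. No member rose with any inhibitor, while 14.4%, 11.1% and 9.87% of all genes rose with AZD8055, KU63794 and TORIN1. The 3 inhibitors share the same mock libraries, so these counts are not independent. Lower calls with all 3 inhibitors were made for 56 members and for 7.33% of all genes.

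The fall was deeper with AZD8055 and KU63794 than with TORIN1 as given, at doses that differ, so the values stand side by side without a test between compounds. Median log2 fold changes of the members were -1.23 with AZD8055, -1.28 with KU63794 and -0.78 with TORIN1, which correspond to 42.6%, 41.2% and 58.1% of the mock level. Over all genes tested the medians were 0.0012, 0.0092 and -0.0138. A fall of at least 2-fold was measured in 48, 46 and 4 members. The TORIN1 change was smaller than the AZD8055 change in 56 members, and smaller than the KU63794 change in 56. The 2-fold falls and the smaller TORIN1 changes were not counted over all genes tested. In 60, 59 and 60 members all 3 inhibitor libraries lay below all 3 mock libraries, as they did in 22.8%, 23.3% and 21.6% of all genes tested.

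**Figure D1:**
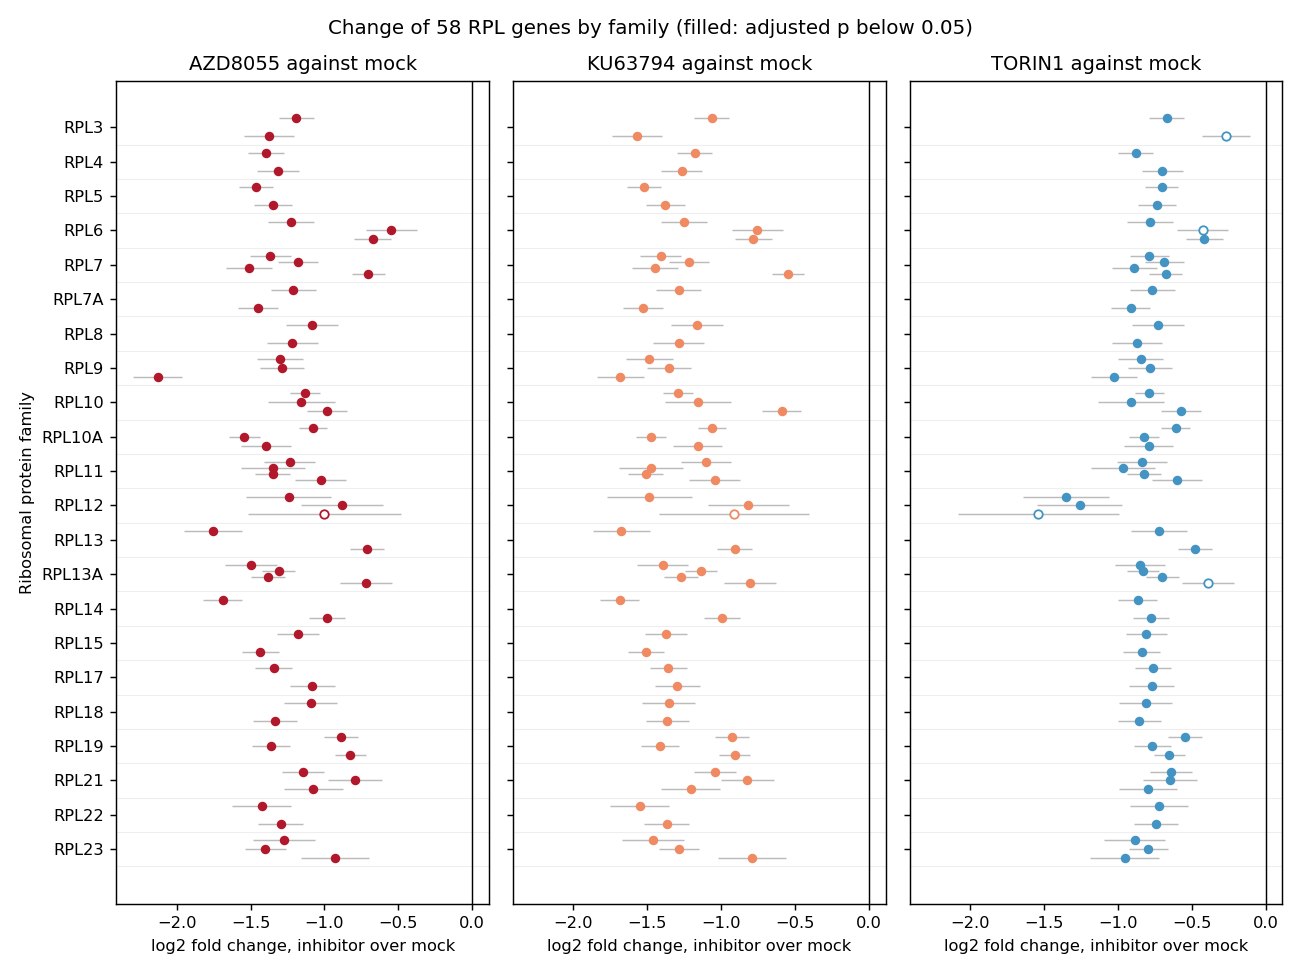
Log2 fold change of 58 of the 60 genes in 22 families, inhibitor over mock, by protein family (rows) and inhibitor (panels), with bars for the standard error and open circles for genes that did not pass an adjusted p of 0.05. Every point lies left of 0, and the points of TORIN1 lie nearer to it, where the median of all 60 genes is -0.78 against -1.23 with AZD8055 and -1.28 with KU63794.

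Taken as a share of the library, the 60 genes held 0.622%, 0.615% and 0.426% of all counts in the AZD8055 libraries, 0.617%, 0.51% and 0.596% in the KU63794 libraries, 0.777%, 0.736% and 0.662% in the TORIN1 libraries and 1.31%, 1.28% and 1.23% in the mock libraries. All inhibitor libraries lay below all mock libraries, and AZD8055 replicate 3 was the lowest. The means were 0.554 ± 0.111%, 0.574 ± 0.0564%, 0.725 ± 0.0582% and 1.27 ± 0.0386% (SD, n = 3 each).

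**Figure D2:**
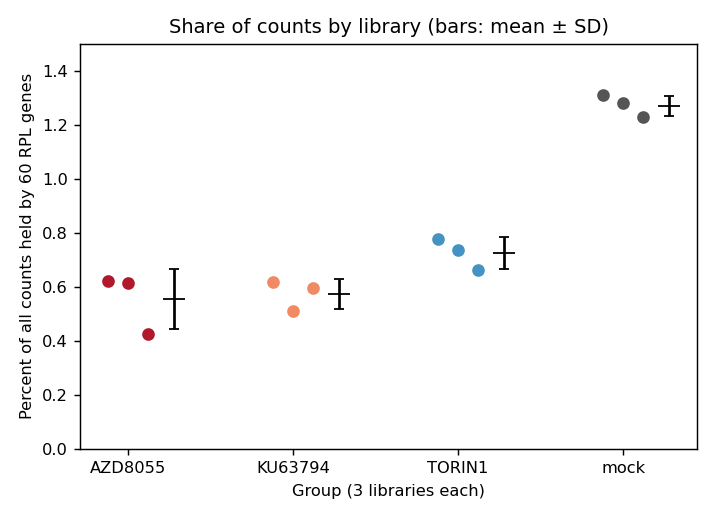
Percent of all counts held by the 60 genes in each library (points), by group, with the mean and SD of 3 libraries beside them. The 9 inhibitor libraries lie between 0.426% and 0.777%, below the 3 mock libraries at 1.23% to 1.31%.

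With the counts of paralogs summed, all 23 families fell with each inhibitor, where 16.0%, 14.2% and 10.1% of all rows of that table fell with AZD8055, KU63794 and TORIN1. Family log2 fold changes ran from -1.42 to -0.89 with AZD8055, from -1.49 to -0.97 with KU63794 and from -1.35 to -0.59 with TORIN1. The largest adjusted p of any family was 0.00178, 0.00169 and 0.0114 in the edgeR test.

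Levels of different genes could not be read as equal measures, because levels in these files were lower the fewer exons a gene had. Genes with 1 exon are 18.9% of nuclear protein-coding genes and held 0.763% to 1.21% of counts in every library. Their median mock level was 0.107 CPM per kb of exon, against 0.438 for 2 exons, 1.25 for 3, 2.6 for 4, 4.44 for 5 and 9.92 for 6 or more. The 3 members with 1 exon, all of the RPL12 family, were among the 4 lowest per kb. The part of the counting in these levels was not tested, and levels of paralogs are therefore compared per kb only at the same number of exons.

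**Figure D3:**
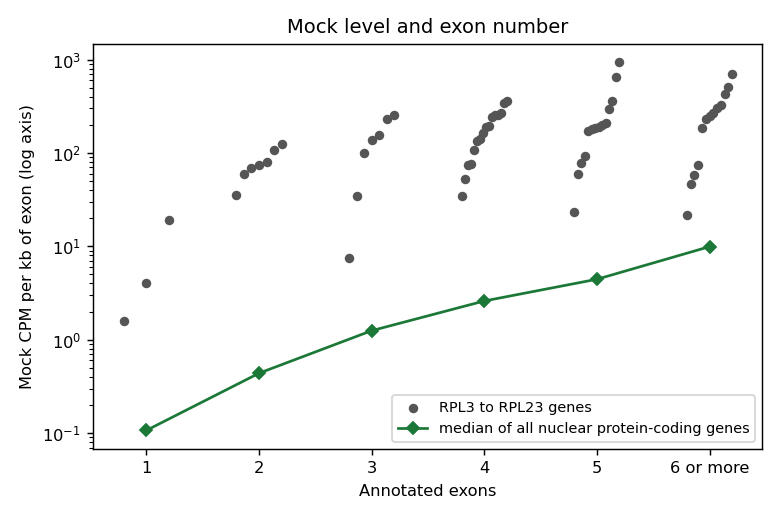
Mock CPM per kb of exon (log axis) of the 60 genes (points) by number of annotated exons, with the median of all nuclear protein-coding genes of each exon number (diamonds). Exons of the 60 genes were counted in the transcript with the longest coding sequence. For the medians the largest number over the transcripts of a gene was used. All members lie above the median of their exon number, and the 3 with 1 exon lie at 19.0, 4.02 and 1.59 CPM per kb.

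The proteins RPL5 and RPL11 bind the 5S ribosomal RNA and enter the subunit with it. RPL5A (AT3G25520), also known as PGY3 for its role in leaf polarity, had 256, 222 and 209 CPM under AZD8055, 213, 204 and 241 under KU63794, 389, 418 and 357 under TORIN1 and 654, 673 and 566 in mock. No inhibitor library reached a mock library. Its log2 fold changes with AZD8055, KU63794 and TORIN1, an order kept below, were -1.46, -1.52 and -0.70 (standard errors 0.11, 0.11 and 0.11; adjusted p in edgeR = 1.62e-06, 1.66e-06 and 0.000717). RPL5B (AT5G39740), with 165 ± 23.5 CPM under AZD8055, 162 ± 29.2 under KU63794, 253 ± 3.62 under TORIN1 and 421 ± 7.6 in mock (SD, n = 3 each), changed by -1.35, -1.38 and -0.73, close to its paralog. At 7 exons each, mock levels were 422 CPM per kb for RPL5A and 301 for RPL5B.

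The RPL11 family has 4 paralogs whose proteins are identical or differ slightly. AT5G45775 had 109, 92.7 and 63.8 CPM under AZD8055, 91.9, 78.1 and 91.8 under KU63794, 119, 119.7 and 117 under TORIN1 and 202, 140.5 and 197 in mock. Mock replicate 2 was the lowest of the mock libraries, but the groups did not overlap. Against mock it changed on the log2 scale by -1.02, -1.04 and -0.60 (standard errors 0.17, 0.17 and 0.17; adjusted p in edgeR = 0.00058, 0.000615 and 0.0251). The TORIN1 call was lost without mock replicate 1 (0.101), mock replicate 3 (0.089), TORIN1 replicate 1 (0.063), TORIN1 replicate 2 (0.0695) or TORIN1 replicate 3 (0.0823), as edgeR adjusted p. RPL16B (AT4G18730) changed by -1.35, -1.51 and -0.82 and AT3G58700 by -1.35, -1.47 and -0.97. RPL16A (AT2G42740), the lowest of the 4 at 23.1 CPM per kb in mock, changed by -1.24, -1.1 and -0.83.

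Several of the proteins line the peptidyl transferase centre or the exit tunnel, where peptide bonds are made and the new chain leaves. RPL3A (AT1G43170), of the protein that reaches towards the peptidyl transferase centre, had 153, 145 and 129 CPM under AZD8055, 140.1, 138 and 188 under KU63794, 208, 212 and 192 under TORIN1 and 309.9, 346 and 319 in mock. The mock libraries were all higher than the inhibitor libraries. Log2 fold changes of RPL3A were -1.19, -1.06 and -0.67 (standard errors 0.12, 0.12 and 0.12; adjusted p in edgeR = 6.26e-06, 1.76e-05 and 0.0013). RPL3B (AT1G61580) had 12.9, 12.5 and 11.4 CPM under AZD8055, 12.4, 7.23 and 12.4 under KU63794, 23.5, 28.4 and 27.1 under TORIN1 and 29, 35.6 and 30.8 in mock. The TORIN1 libraries lay just below the mock libraries, well above those of the other inhibitors. RPL3B changed by -1.37, -1.57 and -0.27 (standard errors 0.17, 0.17 and 0.16; adjusted p in edgeR = 3.51e-05, 1.58e-05 and 0.273), so its fall passed with AZD8055 and KU63794 and not with TORIN1. At 6 exons each, mock levels were 186 CPM per kb for RPL3A and 21.4 for RPL3B.

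RPL4, a protein of the exit tunnel, is encoded by AT5G02870 and AT3G09630, with 2 exons each. AT5G02870 had 52.8, 49.5 and 33.8 CPM under AZD8055, 50.1, 40.8 and 49.6 under KU63794, 71.2, 64.3 and 72.7 under TORIN1 and 117, 103 and 118 in mock. The groups did not overlap, and AZD8055 replicate 3 was the lowest. The fitted log2 changes came to -1.31, -1.27 and -0.70 (standard errors 0.14, 0.14 and 0.14; adjusted p in edgeR = 1.18e-05, 1.88e-05 and 0.00284), beside -1.4, -1.18 and -0.88 for AT3G09630. EMB2296 (AT2G18020), an RPL8 gene known from an embryo-defective mutant, had 79, 58 and 40.4 CPM under AZD8055, 61.3, 48.1 and 58.7 under KU63794, 75, 75.3 and 76.9 under TORIN1 and 124, 124 and 129 in mock. It changed by -1.08, -1.16 and -0.73 (standard errors 0.18, 0.18 and 0.17; adjusted p in edgeR = 0.000487, 0.000352 and 0.0105), and its paralog AT4G36130, which shares 21.4% of its 50-base stretches with other genes, by -1.22, -1.29 and -0.87.

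RPL10 joins the large subunit late, in yeast in the cytoplasm. RPL10A (AT1G14320), also known as SAC52, had 142, 154 and 148 CPM under AZD8055, 140.5, 113 and 145 under KU63794, 190.2, 200.3 and 174 under TORIN1 and 328, 326 and 319.5 in mock. Its changes on the log2 scale were -1.13, -1.29 and -0.79 (standard errors 0.10, 0.10 and 0.10; adjusted p in edgeR = 2.89e-06, 2.28e-06 and 0.00017). RPL10C (AT1G66580), also known as SAG24, had 83.5, 124 and 124 CPM under AZD8055, 149, 146 and 139.8 under KU63794, 169, 137 and 134 under TORIN1 and 222, 226 and 207 in mock. Its AZD8055 replicate 1 was the lowest, and all inhibitor libraries lay below mock. RPL10C had log2 fold changes of -0.98, -0.59 and -0.57 (standard errors 0.14, 0.13 and 0.13; adjusted p in edgeR = 8.45e-05, 0.0046 and 0.00766). RPL10B (AT1G26910), with fewer exons than its paralogs, had 3.5 ± 0.957 CPM under AZD8055, 3.5 ± 0.625 under KU63794, 4.15 ± 0.897 under TORIN1 and 7.8 ± 0.53 in mock (SD, n = 3 each) and changed by -1.16, -1.15 and -0.91, with the TORIN1 call lost without TORIN1 replicate 3 (0.0586), as edgeR adjusted p. For RPL17, another protein of the exit tunnel, AT1G67430 had 354, 264 and 207 CPM under AZD8055, 242, 207 and 263 under KU63794, 336, 353 and 336 under TORIN1 and 602, 589.9 and 557 in mock. No inhibitor library reached mock. AT1G67430 changed by -1.08, -1.3 and -0.77 (standard errors 0.15, 0.15 and 0.15; adjusted p in edgeR = 0.000102, 2.98e-05 and 0.00267) and its paralog AT1G27400 by -1.34, -1.36 and -0.76.

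The stalks of the large subunit hold RPL12 at the base of one and RPL10A, a protein distinct from RPL10, in the other. RPL12 gave the lowest counts of all families, and its members have 1 exon each. AT2G37190 had 11, 7.91 and 4.13 CPM under AZD8055, 7.19, 5.1 and 7.13 under KU63794, 5.44, 9.52 and 6.56 under TORIN1 and 18.6, 20.5 and 15.1 in mock. The groups did not overlap. In log2 units the changes were -1.24, -1.49 and -1.35 (standard errors 0.29, 0.29 and 0.29; adjusted p in edgeR = 0.00529, 0.002 and 0.00553). AT3G53430 had 2.34, 2.47 and 3.01 CPM under AZD8055, 4.06, 1.73 and 2.41 under KU63794, 2.14, 1.81 and 2.06 under TORIN1 and 4.24, 4.85 and 5.48 in mock. The highest KU63794 library lay just below the lowest mock library. Fitted changes were -0.88, -0.82 and -1.26 (standard errors 0.28, 0.27 and 0.29; adjusted p in edgeR = 0.0264, 0.0408 and 0.00675). The AZD8055 call was lost without mock replicate 2 (0.0688), mock replicate 3 (0.0852), AZD8055 replicate 1 (0.0723) or AZD8055 replicate 2 (0.0666), as edgeR adjusted p. The KU63794 call was lost without mock replicate 1 (0.0592), mock replicate 2 (0.101), mock replicate 3 (0.125), AZD8055 replicate 2 (0.0501), KU63794 replicate 2 (0.155), KU63794 replicate 3 (0.124), TORIN1 replicate 2 (0.0535) or TORIN1 replicate 3 (0.0518), and also under upper-quartile scaling (0.0504), library totals alone (0.0684), inhibitor and mock libraries only (0.0602) or DESeq2 (0.0672). AT5G60670 is the member with the lowest counts. It had 1.13, 1.19 and 0.258 CPM under AZD8055, 1.41, 0.628 and 0.664 under KU63794, 0.389, 0.566 and 0.763 under TORIN1 and 1.3, 1.71 and 2.22 in mock. KU63794 replicate 1 overlapped mock, and several libraries stood near the limit of a count of 0. It passed with none of the inhibitors, at -1.0, -0.91 and -1.54 (standard errors 0.52, 0.51 and 0.55; adjusted p in edgeR = 0.164, 0.211 and 0.0607). With TORIN1 it passed when AZD8055 replicate 3 was left out (edgeR adjusted p = 0.0312) and when the TORIN1 and mock libraries alone were fitted (0.0166). Summed, the RPL12 family had 11.1 ± 3.56 CPM under AZD8055, 10.1 ± 2.6 under KU63794, 9.75 ± 1.99 under TORIN1 and 24.7 ± 2.2 in mock (SD, n = 3 each). It was the one family whose summed change with TORIN1 was at least as large as with the other inhibitors, with log2 fold changes of -1.15, -1.29 and -1.35 (standard errors 0.23, 0.23 and 0.23; adjusted p in edgeR = 0.00178, 0.000965 and 0.00138).

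PGY1 (AT2G27530), an RPL10A family gene with a known role in leaf polarity, had 124, 145 and 114 CPM under AZD8055, 149.8, 125 and 127 under KU63794, 200.5, 214 and 218 under TORIN1 and 369, 372 and 375 in mock. Inhibitor and mock libraries were far apart. On the log2 scale it moved by -1.54, -1.47 and -0.82 (standard errors 0.10, 0.10 and 0.10; adjusted p in edgeR = 5.99e-07, 1.19e-06 and 0.000158). AT1G08360 and AT5G22440 of the same family changed by -1.08, -1.06 and -0.61 and -1.39, -1.16 and -0.79. RPL9 lies near the site where translation factors bind. PGY2 (AT1G33140) had 121, 105 and 83.5 CPM under AZD8055, 114, 74.6 and 107 under KU63794, 139, 147 and 153 under TORIN1 and 254, 255 and 246 in mock. Its shifts from mock were -1.29, -1.35 and -0.78 (standard errors 0.15, 0.15 and 0.15; adjusted p in edgeR = 2.48e-05, 2.06e-05 and 0.00222). Its neighbour AT1G33120 encodes an identical protein, shares 53.4% of its 50-base stretches with other genes and changed by -1.3, -1.48 and -0.84, so reads of this pair may be split uncertainly. The third RPL9 gene, AT4G10450, shares none and had 10.2, 15.9 and 10.4 CPM under AZD8055, 15.5, 15.9 and 18.3 under KU63794, 24.2, 31.4 and 22.9 under TORIN1 and 55.5, 55.2 and 48.2 in mock. The highest inhibitor library had 31.4 CPM and the lowest mock library 48.2 CPM. Its log2 fold changes, the largest mean change of all members, were -2.13, -1.68 and -1.02 (standard errors 0.17, 0.16 and 0.16; adjusted p in edgeR = 1.76e-06, 6.6e-06 and 0.000584).

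RPL19 and RPL23 lie at or near the face that meets the small subunit. The RPL19 gene emb2386 (AT1G02780), known from an embryo-defective mutant, had 436, 404 and 318 CPM under AZD8055, 400.0, 341 and 386 under KU63794, 500.4, 501 and 464 under TORIN1 and 737, 712 and 692 in mock. The groups did not overlap. With the inhibitors it changed by -0.89, -0.93 and -0.55 (standard errors 0.12, 0.12 and 0.12; adjusted p in edgeR = 5.52e-05, 4.86e-05 and 0.00419). AT3G16780 and AT4G02230 changed by -1.36, -1.41 and -0.77 and -0.83, -0.91 and -0.65. The RPL23 gene emb2171 (AT3G04400) had 200.3, 229 and 123 CPM under AZD8055, 249.7, 207 and 151 under KU63794, 178, 192 and 172 under TORIN1 and 313, 431 and 305 in mock. Mock replicate 2 was far above the other mock libraries, and the KU63794 libraries were spread. Against mock it changed on the log2 scale by -0.93, -0.79 and -0.95 (standard errors 0.23, 0.23 and 0.23; adjusted p in edgeR = 0.00969, 0.0251 and 0.0129). The KU63794 call was lost without mock replicate 2 (0.102), KU63794 replicate 2 (0.0673) or KU63794 replicate 3 (0.0776), and also under library totals alone (0.0763), as edgeR adjusted p, and the TORIN1 call without mock replicate 2 (0.0539) or TORIN1 replicate 3 (0.0561). The paralogs AT1G04480 and AT2G33370, which encode the same protein, changed by -1.27, -1.46 and -0.89 and -1.4, -1.28 and -0.79.

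The other families encode proteins that lie mostly on the outer side of the subunit. In RPL6, the gene AT1G18540 had 168, 126 and 91.4 CPM under AZD8055, 135, 113 and 131 under KU63794, 173, 175 and 176 under TORIN1 and 296, 303 and 303 in mock. It changed by -1.23, -1.25 and -0.78 (standard errors 0.16, 0.16 and 0.16; adjusted p in edgeR = 6.44e-05, 6.74e-05 and 0.00335), and AT1G18540 shares 38.1% of its 50-base stretches with a neighbouring gene. AT1G74060 had 119.9, 68.5 and 68.2 CPM under AZD8055, 75.9, 68.9 and 77.7 under KU63794, 88.4, 88.9 and 102 under TORIN1 and 127, 126 and 122 in mock. AZD8055 replicate 1 was close to mock and far above the other AZD8055 libraries. AT1G74060 shares 36.3% of its stretches with AT1G74050 and AT1G74055. The log2 fold changes were -0.55, -0.76 and -0.42 (standard errors 0.17, 0.17 and 0.17; adjusted p in edgeR = 0.0282, 0.00599 and 0.104). The AZD8055 call was lost without mock replicate 1 (0.0722), mock replicate 2 (0.0725), mock replicate 3 (0.0597), AZD8055 replicate 2 (0.1) or AZD8055 replicate 3 (0.106), and also under inhibitor and mock libraries only (0.0852), as edgeR adjusted p. With TORIN1 it passed without AZD8055 replicate 1 (edgeR adjusted p = 0.00195), in a fit of TORIN1 and mock libraries alone (0.0014) and with library totals alone (0.0422). AT1G74050, the other RPL6 gene, had 136, 95.5 and 97.3 CPM under AZD8055, 102, 92.8 and 111 under KU63794, 121, 134 and 138 under TORIN1 and 174, 187 and 164 in mock. Its groups did not overlap. Fitted changes were -0.67, -0.78 and -0.42 (standard errors 0.13, 0.13 and 0.13; adjusted p in edgeR = 0.00101, 0.000391 and 0.0304), with the TORIN1 call lost without mock replicate 1 (0.0761), mock replicate 2 (0.122), TORIN1 replicate 1 (0.1), TORIN1 replicate 2 (0.0776) or TORIN1 replicate 3 (0.0578).

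In RPL7, the gene AT2G01250 had 319, 271 and 208 CPM under AZD8055, 281, 229 and 266 under KU63794, 360.0, 388 and 376 under TORIN1 and 584, 589.6 and 633 in mock. Its shifts from mock were -1.18, -1.22 and -0.68 (standard errors 0.13, 0.13 and 0.13; adjusted p in edgeR = 1.71e-05, 1.7e-05 and 0.00242). AT3G13580 had 65.2, 63.2 and 51.2 CPM under AZD8055, 67.6, 69.7 and 62.6 under KU63794, 69, 61.6 and 52.6 under TORIN1 and 98.2, 98 and 96.2 in mock. The 9 inhibitor libraries were all below mock and close to each other. With the inhibitors it changed by -0.70, -0.55 and -0.68 (standard errors 0.11, 0.11 and 0.11; adjusted p in edgeR = 0.000237, 0.00185 and 0.000816), among the smallest changes with AZD8055 and KU63794. AT2G44120 had 59.2, 57.7 and 38.1 CPM under AZD8055, 60, 47 and 55 under KU63794, 85.5, 86.4 and 67.4 under TORIN1 and 161, 139.9 and 141 in mock. Its inhibitor libraries did not overlap mock. It changed by -1.51, -1.45 and -0.89 (standard errors 0.16, 0.16 and 0.15; adjusted p in edgeR = 1.16e-05, 1.89e-05 and 0.00137). AT1G80750, a divergent paralog, had 22.7, 21.9 and 15.4 CPM under AZD8055, 17.8, 18.5 and 22 under KU63794, 32.1, 28.8 and 28.8 under TORIN1 and 52.6, 54.7 and 47.1 in mock. The log2 fold changes were -1.37, -1.41 and -0.79. For RPL7A, AT2G47610 had 154, 142 and 106 CPM under AZD8055, 135, 95.3 and 149.8 under KU63794, 176, 189 and 181 under TORIN1 and 314, 308 and 307 in mock, with log2 fold changes of -1.21, -1.29 and -0.77, and AT3G62870 changed by -1.45, -1.53 and -0.91.

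BBC1 (AT3G49010), an RPL13 gene, had 109.6, 84.6 and 58.6 CPM under AZD8055, 111, 73.4 and 82.1 under KU63794, 166, 179 and 173 under TORIN1 and 288, 295 and 269.7 in mock. Mock libraries were well above all others, and the TORIN1 libraries lay between. The fitted log2 changes came to -1.75, -1.68 and -0.72 (standard errors 0.19, 0.19 and 0.19; adjusted p in edgeR = 2.94e-05, 4.85e-05 and 0.017). The TORIN1 call was lost without mock replicate 1 (0.0516), mock replicate 2 (0.0573), TORIN1 replicate 1 (0.0543) or TORIN1 replicate 3 (0.0586), as edgeR adjusted p. Its paralog AT5G23900 had 122, 91.6 and 83 CPM under AZD8055, 81.6, 86.5 and 91.3 under KU63794, 115, 118 and 117 under TORIN1 and 168, 158 and 161 in mock. No inhibitor library of AT5G23900 reached mock. AT5G23900 changed by -0.71, -0.91 and -0.48 (standard errors 0.12, 0.12 and 0.12; adjusted p in edgeR = 0.000331, 5.74e-05 and 0.00945).

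RPL13A has 4 genes, each with 4 exons. AT3G24830, the highest in mock, had 108, 114 and 79.8 CPM under AZD8055, 117, 110.2 and 114 under KU63794, 144, 137 and 141 under TORIN1 and 252, 252 and 244 in mock. Fitted changes were -1.31, -1.14 and -0.83 (standard errors 0.11, 0.11 and 0.11; adjusted p in edgeR = 2.48e-06, 7.29e-06 and 0.000219). AT3G07110 had 54.7, 54.9 and 38.1 CPM under AZD8055, 61.7, 45.8 and 51 under KU63794, 85.6, 65.6 and 80.4 under TORIN1 and 109.8, 155 and 153 in mock. Mock replicate 1 was lower than the other mock libraries and above all inhibitor libraries. Its shifts from mock were -1.5, -1.4 and -0.85 (standard errors 0.17, 0.17 and 0.17; adjusted p in edgeR = 3.66e-05, 7.42e-05 and 0.00388). AT4G13170 had 33.2, 29.8 and 25.3 CPM under AZD8055, 31.9, 30 and 33.3 under KU63794, 41.6, 49.3 and 50.7 under TORIN1 and 70, 78.3 and 82 in mock and shares 51.1% of its 50-base stretches with a neighbouring gene. No inhibitor library of AT4G13170 reached mock. With the inhibitors it changed by -1.38, -1.27 and -0.70. AT5G48760 had 38.9, 31.5 and 20.3 CPM under AZD8055, 30.3, 29.7 and 25.6 under KU63794, 37.2, 37.6 and 39.2 under TORIN1 and 43.3, 52.5 and 54.1 in mock. The TORIN1 libraries lay just below mock. It changed by -0.72, -0.80 and -0.39 (standard errors 0.18, 0.18 and 0.18; adjusted p in edgeR = 0.00703, 0.00414 and 0.138), and the TORIN1 change passed without AZD8055 replicate 3 (edgeR adjusted p = 0.0244) and in a fit of TORIN1 and mock libraries alone (0.00872).

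In RPL14, AT4G27090 had 398, 356 and 278 CPM under AZD8055, 351, 319 and 357 under KU63794, 421, 406 and 368 under TORIN1 and 710.5, 674 and 656 in mock. The log2 fold changes were -0.98, -0.99 and -0.77 (standard errors 0.12, 0.12 and 0.12; adjusted p in edgeR = 3.51e-05, 4.03e-05 and 0.000666). AT2G20450 had 51.9, 53.9 and 35.7 CPM under AZD8055, 51.7, 40.2 and 49.7 under KU63794, 82.8, 82.7 and 84.5 under TORIN1 and 151, 150.1 and 155 in mock. The AZD8055 and KU63794 libraries lay lowest, the TORIN1 libraries above them and the mock libraries above all. Fitted changes were -1.69, -1.69 and -0.87 (standard errors 0.13, 0.13 and 0.13; adjusted p in edgeR = 1.84e-06, 2.28e-06 and 0.000479), the second largest mean change among members. At 5 exons each, mock levels were 932 CPM per kb for AT4G27090 and 189 for AT2G20450. In RPL15, AT4G16720 had 191, 152 and 116 CPM under AZD8055, 134, 119.7 and 147 under KU63794, 200.2, 200.5 and 193 under TORIN1 and 348, 348 and 342 in mock, and AT4G17390 changed by -1.43, -1.51 and -0.84 beside -1.18, -1.37 and -0.81 for AT4G16720.

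RPL18 (AT3G05590) had 290.2, 205 and 147 CPM under AZD8055, 194, 156 and 186 under KU63794, 257, 262 and 262 under TORIN1 and 448, 458 and 464 in mock. The mock libraries stood above all others. This gene changed by -1.09, -1.35 and -0.81, and its paralog AT5G27850 by -1.33, -1.36 and -0.85. In RPL21, AT1G09690 had 92.4, 71.3 and 47 CPM under AZD8055, 79.3, 65.3 and 61.6 under KU63794, 78.9, 79 and 75.6 under TORIN1 and 117, 118 and 130 in mock. All inhibitor libraries lay below mock. AT1G09690 changed by -0.79, -0.82 and -0.64 (standard errors 0.18, 0.18 and 0.18; adjusted p in edgeR = 0.00531, 0.00496 and 0.0243), with the TORIN1 call lost without mock replicate 1 (0.0537), mock replicate 2 (0.0601), mock replicate 3 (0.0768), TORIN1 replicate 1 (0.0579), TORIN1 replicate 2 (0.0656) or TORIN1 replicate 3 (0.0835). AT1G57660, with -1.07, -1.21 and -0.80, lost its TORIN1 call without mock replicate 2 (0.0528), and AT1G09590 changed by -1.14, -1.04 and -0.64. In RPL22, AT3G05560 had 64.5, 66.7 and 52.2 CPM under AZD8055, 65.5, 33.9 and 68.5 under KU63794, 96.2, 101 and 102 under TORIN1 and 172, 159.5 and 160.0 in mock. KU63794 replicate 2 was far below the other libraries of its group. The log2 fold changes were -1.42, -1.55 and -0.72 (standard errors 0.20, 0.20 and 0.20; adjusted p in edgeR = 0.000212, 0.000145 and 0.0226), with the TORIN1 call lost without mock replicate 1 (0.072), mock replicate 2 (0.0547), mock replicate 3 (0.0519), TORIN1 replicate 1 (0.0668), TORIN1 replicate 2 (0.0636) or TORIN1 replicate 3 (0.0653). AT5G27770 changed by -1.3, -1.37 and -0.74.

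Ratios of paralogs differed between inhibitor and mock libraries in some pairs, though how many passed after adjustment depended on the setting of the test. For each of 54 pairs the log2 ratio of counts (count + 0.5) was taken within each library, so that library scaling drops out, and the 9 inhibitor libraries were set against the 3 mock libraries. A two-sided exact permutation test over all 220 splits gave p below 0.05 for 17 pairs, and for 11 without mock replicate 2. After Benjamini-Hochberg adjustment over the 54 pairs, 6 passed, each at the smallest p the splits allow, 0.00455 (adjusted p = 0.0409). With the two-sided p taken as the doubled one-sided p, an alternative that was computed first and listed after the data were seen, 18 pairs had p below 0.05 and none passed after adjustment (smallest adjusted p = 0.0545). None passed either without any 1 of the mock libraries (0.14 each), AZD8055 replicate 2 or 3 (0.0655 each) or KU63794 replicate 1 (0.0545). More passed with the AZD8055 and KU63794 libraries alone set against mock (15 pairs), without TORIN1 replicate 2 (10) and without TORIN1 replicate 3 (9). The smallest permutation p possible differed between these settings. It was 0.00909 for the doubled p, 0.0182 without a mock library, 0.00606 without an inhibitor library and 0.0119 with AZD8055 and KU63794 alone. The counts after adjustment therefore depend partly on the number of splits and cannot tell a lost shift from a coarser test. Shifts of under 0.2 on the log2 scale were found in 26 pairs and of over 0.5 in 6.

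The ratio of BBC1 (AT3G49010) to AT5G23900 in RPL13 shifted the most. Its log2 ratios were -0.16, -0.11 and -0.50 under AZD8055, 0.45, -0.24 and -0.15 under KU63794, 0.53, 0.60 and 0.56 under TORIN1 and 0.78, 0.90 and 0.74 in mock. No inhibitor library reached mock, and the TORIN1 libraries lay nearest to it. The shift over the 9 libraries was -0.70 (exact permutation p = 0.0318; 0.101 after adjustment), and by inhibitor -1.07 with AZD8055, -0.79 with KU63794 and -0.24 with TORIN1. BBC1 held 45.6 ± 3.64% with AZD8055, 50.3 ± 6.43% with KU63794, 59.7 ± 0.584% with TORIN1 and 63.6 ± 1.32% in mock of the family's summed level (SD, n = 3 each).

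In RPL6, the log2 ratios of AT1G18540 to AT1G74060 were 0.49, 0.88 and 0.42 under AZD8055, 0.83, 0.72 and 0.76 under KU63794, 0.97, 0.98 and 0.78 under TORIN1 and 1.22, 1.27 and 1.3 in mock. All inhibitor libraries lay below mock. The shift was -0.51 (exact permutation p = 0.00455; 0.0409 after adjustment), and that of AT1G18540 to AT1G74050 was -0.47 (exact permutation p = 0.00455; 0.0409 after adjustment), while the ratio of AT1G74050 to AT1G74060 shifted by -0.03 (exact permutation p = 0.632; 0.742 after adjustment). The pairs with AT1G18540 share that gene and are not independent. AT1G18540 and AT1G74060 also share stretches with other genes, as given above. AT1G18540 held 39.6 ± 3.94% with AZD8055, 41.8 ± 1.17% with KU63794, 43.8 ± 1.51% with TORIN1 and 50.1 ± 1.12% in mock of the family's level.

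In RPL13A, the gene AT5G48760 had the smallest log2 fold changes of the 4 paralogs. The log2 ratios of AT3G07110 to AT5G48760 were 0.49, 0.80 and 0.91 under AZD8055, 1.02, 0.62 and 0.99 under KU63794, 1.2, 0.80 and 1.04 under TORIN1 and 1.34, 1.56 and 1.5 in mock. All inhibitor libraries lay below mock. The shift was -0.59 (exact permutation p = 0.00455; 0.0409 after adjustment), that of AT3G24830 to AT5G48760 -0.44 (exact permutation p = 0.00455; 0.0409 after adjustment) and that of AT4G13170 to AT5G48760 -0.47 (exact permutation p = 0.00909; 0.0701 after adjustment). These 3 pairs share AT5G48760 and are not independent.

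In RPL7, the log2 ratios of AT2G44120 to AT3G13580 were -0.14, -0.13 and -0.43 under AZD8055, -0.17, -0.57 and -0.19 under KU63794, 0.31, 0.49 and 0.36 under TORIN1 and 0.71, 0.51 and 0.55 in mock. Inhibitor libraries all lay below mock. The shift was -0.64 (exact permutation p = 0.0227; 0.0877 after adjustment), and by inhibitor -0.83 with AZD8055, -0.90 with KU63794 and -0.21 with TORIN1. For AT3G13580 to AT1G80750 it was 0.54 (exact permutation p = 0.0318; 0.101 after adjustment), and by inhibitor 0.67 with AZD8055, 0.86 with KU63794 and 0.10 with TORIN1.

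In RPL14, the log2 ratios of AT4G27090 to AT2G20450 were 2.94, 2.72 and 2.96 under AZD8055, 2.76, 2.99 and 2.84 under KU63794, 2.34, 2.29 and 2.12 under TORIN1 and 2.24, 2.17 and 2.08 in mock. The TORIN1 libraries overlapped mock, and the AZD8055 and KU63794 libraries lay above both. The shift was 0.50 (exact permutation p = 0.0273; 0.0982 after adjustment), and by inhibitor 0.71 with AZD8055, 0.70 with KU63794 and 0.09 with TORIN1. AT4G27090 held 88 ± 0.978% with AZD8055, 87.9 ± 0.84% with KU63794, 82.6 ± 1.19% with TORIN1 and 81.7 ± 0.813% in mock of the family's level. The remaining pairs that passed after adjustment were emb2386 (AT1G02780) to AT3G16780 in RPL19, with a shift of 0.40 (exact permutation p = 0.00455; 0.0409 after adjustment), and PGY1 (AT2G27530) to AT1G08360 in RPL10A, with -0.37 (exact permutation p = 0.00455; 0.0409 after adjustment). Each inhibitor alone, with 3 libraries against 3, cannot give a p below 0.1 in this test, so the values by inhibitor carry none.

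**Figure D4:**
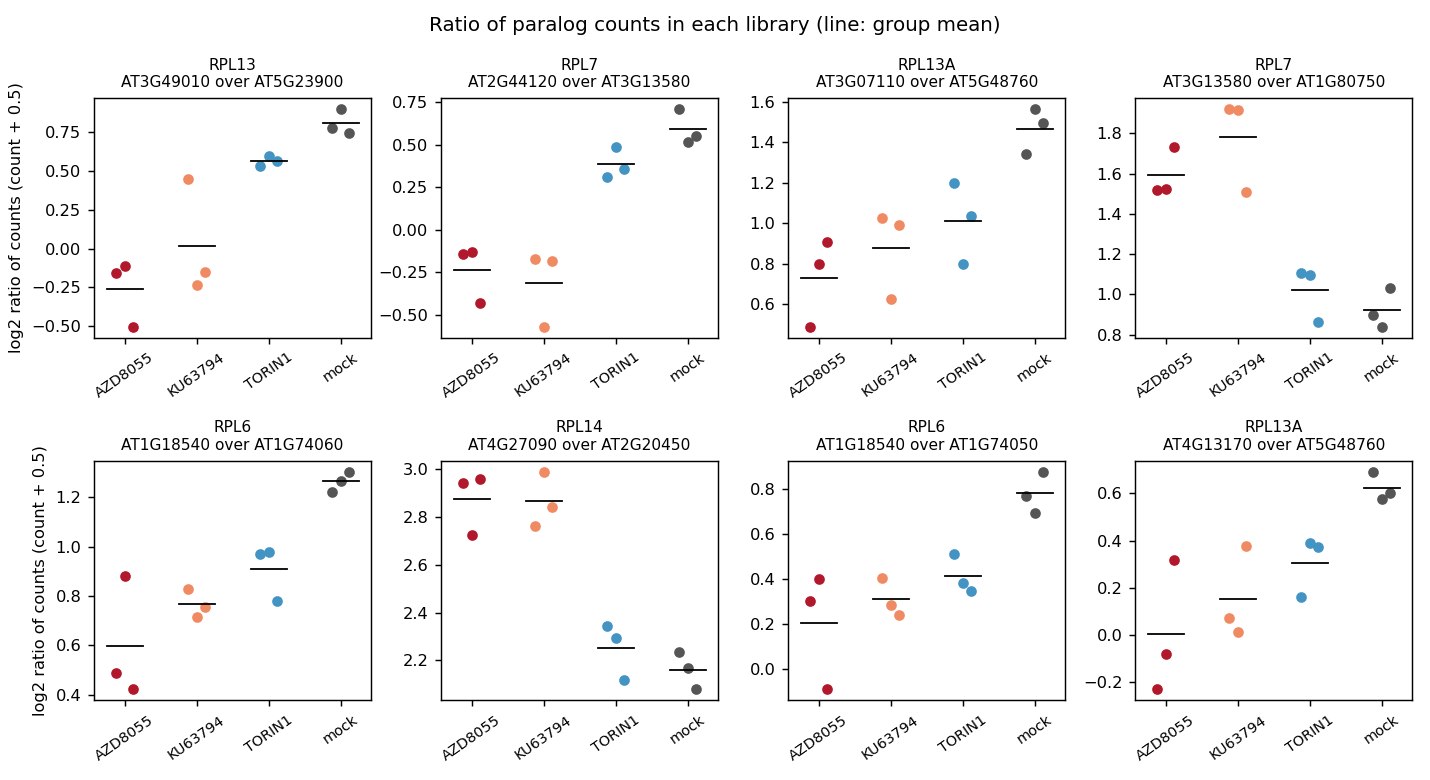
Log2 ratio of the counts of 2 paralogs (count + 0.5) in each library (points), by group, for the 8 pairs with the largest shift, with a line at the group mean. In the RPL13 pair the mock libraries lie at 0.74 to 0.90, above all inhibitor libraries, while in the RPL14 pair the TORIN1 libraries overlap mock.

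Most listed factors that assemble the 60S subunit fell as well, in a list also drawn up with earlier results of these data known. Of 27 tested genes of this list, lower calls numbered 24 (AZD8055), 24 (KU63794) and 23 (TORIN1), none rose, and 3, 3 and 4 did not pass, where 16.1%, 14.3% and 10.3% of all genes tested were called lower. Their median log2 fold changes were -1.22, -1.06 and -0.73, against 0.0012, 0.0092 and -0.0138 over all genes tested. RLP24 (AT2G44860), a placeholder protein of precursor particles, had 21.3, 27.4 and 17 CPM under AZD8055, 23, 24.8 and 22.2 under KU63794, 40.3, 30.6 and 27.6 under TORIN1 and 55.7, 75.1 and 65.6 in mock. Fitted changes were -1.58, -1.49 and -0.99 (standard errors 0.17, 0.17 and 0.17; adjusted p in edgeR = 1.8e-05, 3.35e-05 and 0.0013). BRX1-2 (AT1G52930) changed by -1.43, -1.52 and -1.04 (standard errors 0.30, 0.30 and 0.30; adjusted p in edgeR = 0.00441, 0.00357 and 0.0303) and MAK16 (AT1G23280) by -1.44, -1.52 and -0.90. BRX1-1 (AT3G15460), the paralog of BRX1-2 and added after its values were seen, changed by -1.38, -0.48 and -1.16. It did not pass with KU63794 (adjusted p in edgeR = 0.171), where replicate 2 had 53.4 CPM beside 46.9, 53 and 50.3 in mock. NSN1 (AT3G07050), a nucleolar GTPase, changed by -1.5, -1.43 and -0.87. LSG1-1 (AT2G27200) and REIL1 (AT4G31420), which act on late cytoplasmic particles, were picked out after their values were seen. They passed with none, at 0.08, 0.36 and 0.18 and -0.03, -0.10 and 0.01. Their paralogs LSG1-2 (AT1G08410) and REIL2 (AT2G24500) were called lower with each inhibitor. LSG1-2 changed by -0.82, -0.98 and -0.63 and REIL2 by -1.12, -0.98 and -0.73.

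Of 6 tested regulators linked to ribosomal protein genes, lower calls numbered 1 (AZD8055), 1 (KU63794) and 2 (TORIN1), and 1 gene was called higher with each inhibitor. Over all genes tested, 16.1%, 14.3% and 10.3% were called lower and 14.4%, 11.1% and 9.87% higher, so that 1 call among 6 genes is near the background. LARP1A (AT5G21160), of the family that binds mRNAs with terminal oligopyrimidine tracts in mammals, had 51.3, 52.8 and 44.5 CPM under AZD8055, 48.1, 51.3 and 51.4 under KU63794, 54.3, 54.7 and 50.5 under TORIN1 and 84.3, 104 and 87.7 in mock. Its shifts from mock were -0.89, -0.87 and -0.79 (standard errors 0.10, 0.10 and 0.10; adjusted p in edgeR = 1.35e-05, 1.99e-05 and 0.000155). PURA1 (AT2G32080) rose, with 0.51, 0.40 and 0.40 (standard errors 0.11, 0.11 and 0.11; adjusted p in edgeR = 0.00233, 0.0128 and 0.0172). The telomere-repeat binding genes TRB1, TRB2 and TRB3 passed with none of the inhibitors, between -0.02 and 0.21.

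Markers of cell types that the tissue could hold were measured beside these changes. None of 10 dividing-cell markers passed with any inhibitor, and their summed level was 112 to 163 CPM with AZD8055, 135 to 165 with KU63794, 126 to 161 with TORIN1 and 134 to 155 in mock. Of 8 shoot markers, LHCA1 (AT3G54890) rose with AZD8055 (edgeR adjusted p = 0.0453), where 14.4% of all genes tested rose. None passed with KU63794, and LHCB1.1 and LHCB1.3 fell with TORIN1, where 10.3% of all genes tested fell. Shoot markers summed to at least 36507 CPM in every library, as fits the labelled tissue. Of 9 tested root markers, 0, 2 and 3 fell with AZD8055, KU63794 and TORIN1, beside 16.1%, 14.3% and 10.3% of all genes tested, and their list summed to 15.1 to 16.0 CPM, 14.7 to 16.0, 6.79 to 11.8 and 16.2 to 26.6 in mock. Of 3 tested shoot meristem markers, CLV1 (AT1G75820) rose with AZD8055 and KU63794, where 14.4% and 11.1% of all genes tested rose. STM and KNAT1 passed with none of the inhibitors, and WUS was at 0 in all libraries. The part of these cells in the results was not tested.

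In the authors' deposited tables of genes that differ from mock, 59, 58 and 56 members are listed for AZD8055, KU63794 and TORIN1, all higher in mock. The same authors' deposited tables list 5308, 4558 and 3696 genes, of which 51.6%, 53.3% and 50.3% are higher in mock. The authors' deposited list of genes moved the same way by at least 2 of the 3 inhibitors holds 4398 genes, of which 59 are members. The authors' deposited tables do not list AT5G60670.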

How the data were processed

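Polyadenylated RNA of 12 shoot libraries was measured by RNA-seq. The authors deposited raw counts per gene, normalized counts (signal) and tables of log2 fold changes with p-values. Per the submitters' processing notes, StringTie 1.3.3, DESeq2 1.18.1 and TAIR10 were used. Aligner, strand setting and treatment of shared reads were not given in the sources used here. Normalized counts as deposited were set against the deposited raw counts (relative deviation at most 5.16e-15), and the log2 fold changes and p-values of the authors only where named.

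Counts were tested with edgeR 4.0.16 (R 4.3.3; TMM scaling, default low-count filter, robust quasi-likelihood fit over all 12 libraries) and Benjamini-Hochberg adjustment over 17933 genes. CPM are scaled to the TMM-adjusted total. The SE is the absolute log2 fold change over the square root of F. DESeq2 1.42.0 and limma 3.58.1 voom were alternatives. Paralog ratios were tested with exact permutations. The tests were tried on simulated data. Promoters, exons and shared 50-base stretches came from RefSeq TAIR10.1. Exons of members were counted in the transcript with the longest coding sequence, and those of all genes as the largest number over transcripts. Members, gene lists and the rule for named genes (family leaders, members that did not pass with all 3, the most and least changed, members of the 8 most shifted pairs, up to 4 genes per other list) were chosen with earlier results of these data known. The values of a further family are not reported here.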

Additional observations from a re-analysis of the deposited data

How the results depend on the processing

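Under DESeq2, limma voom, other scalings, no low-count filter and fits of 1 inhibitor with mock, members called lower numbered 58 to 59 with AZD8055, 57 to 59 with KU63794 and 56 to 59 with TORIN1, and 55 to 56 with all 3. With 1 library left out at a time these were 57 to 59, 57 to 59, 49 to 58 and 48 to 57. Families called lower stayed at 23 in each. Pairs with p below 0.05 numbered 17 to 20 under the alternatives and 11 to 19 with 1 library left out, against 17. Shares of counts with 1 library left out were 0.52% to 0.618% with AZD8055, 0.553% to 0.606% with KU63794, 0.699% to 0.757% with TORIN1 and 1.26% to 1.3% in mock. Of 3600 values of single members under alternatives, 56 lost and 7 gained a call and none changed direction. No label ties libraries of different groups by replicate number. Same-numbered libraries correlated at -0.27 to 0.23, with 3 of 18 above 0.1, a range that neither shows nor excludes pairing. With the replicate number as a block the calls were 59, 59 and 56 members, 56 with all 3, 23 families each and 17 pairs, of which none passed after adjustment (smallest adjusted p = 0.0844). The smallest permutation p possible for a pair was 0.0156 with the block and 0.00455 without it, so the 2 counts after adjustment are not alike. Depth limits RPL12 most, and 3 libraries a group limit every paralog ratio.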
